A study of Mus musculus with 36 samples.

Results

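In the striatum of SWR/J mice, 66 of the 45036 non-control probe sets on the Affymetrix Mouse Genome 430 2.0 array stood apart from those of 3 other inbred strains (DBA/2J, C57BL/6J and 129P3/J). A probe set is a group of short probes meant to capture 1 transcript. A probe set counted as private to SWR/J when its mean log2 intensity over the 9 SWR/J arrays lay more than 1, a 2-fold difference, above each of the other strain means or more than 1 below each of them, and when its highest strain mean was over 6.64, the study's detection level (about 100 on the linear scale). Because strain means chose the members, the strain differences given here are a description and were not tested. Of the 66 members, 15 were higher in SWR/J and 51 (77.3%) were lower. The same rule gave 83 probe sets for DBA/2J and 71 each for C57BL/6J and 129P3/J. The share that was lower in the strain itself was 68.7% for DBA/2J, 35.2% for C57BL/6J and 70.4% for 129P3/J.

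Each of the 4 strains supplied adult male mice aged 8 to 10 weeks to saline (SAL), acute morphine (ACU) and chronic morphine (CHR) groups. All mice were injected 3 times daily until day 5: the saline groups received saline throughout, the acute groups saline followed by a single 20 mg/kg dose of morphine, and the chronic groups morphine that climbed from 10 mg/kg through 20 mg/kg to 40 mg/kg, the size of their final dose. Striatum was collected 4 hours after the final injection. There were 3 arrays in each of the 12 groups, 36 in all, and 1 array carried RNA pooled from 3 mice, so p-values describe the spread between pools. Array medians of the deposited linear intensity ran from 119 to 133. Medium spiny neurons are the main cell type of the striatum, and 18 of 20 listed genes that mark them were detected; their summed intensity was 42236 to 50352 on the SWR/J arrays and 39668 to 50536 on the others.

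Inbred strains carry fixed sequence differences, so a transcript can differ in level between strains in every tissue sample. A probe can also hybridize less well where a strain's transcript differs in sequence under the probe, and a probe set can report an exon or transcript end that only some isoforms contain. Probe sequences and SWR/J genome sequence were not analysed here, and the part of such differences in the values below was not tested.

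The members lay on both sides of the detection level. Among the 51 lower members, the SWR/J mean was under 6.64 in 26, and in 20 of these no SWR/J array passed it. For those 20 a fold change has only a lower bound, taken as the mean of the other 27 arrays over the detection level. Measured on the log2 scale, the median difference from the mean of the other strains was -1.72 for lower members and 1.66 for higher ones. With the members whose dimmer side never passed the level set to their bounds, the median sizes were 1.28 and 1.32. These medians include bounds that say nothing about size. They were -0.48 for Itch, -0.40 for 1457183_at, -0.11 for Pisd-ps3 1453144_at and 0.003 for the higher member 1457141_at. The means of the other 3 strains spanned under 0.25 in 42 of 66 members. The share over all detected probe sets was not computed. All 15 members with a gap over 2 to the nearest strain, and the 5 with a gap over 3, were lower in SWR/J.

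**Figure D1:**
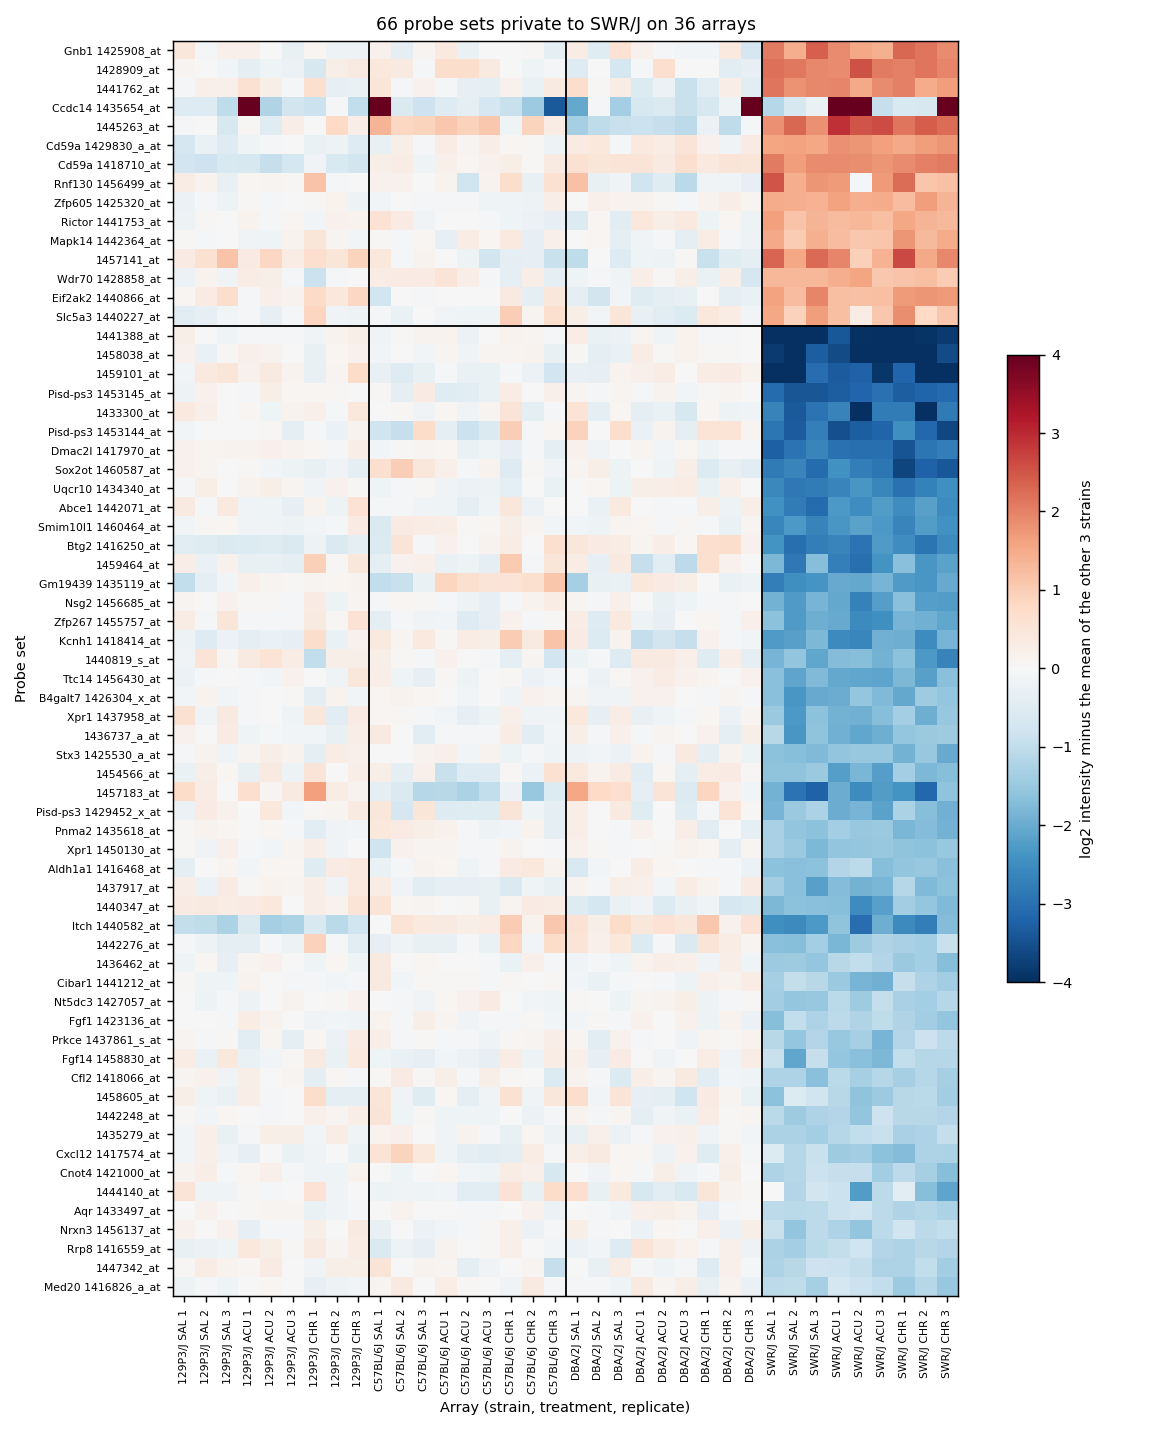
Each of the 66 members (rows) on each of the 36 arrays (columns, grouped by strain), as log2 intensity minus the mean of the other 3 strains, with red for higher and blue for lower. The 15 higher members are above the horizontal line and the 51 lower ones below it. Ccdc14 is the row in which 3 SWR/J arrays and a single array of each other strain are dark red.

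The 9 SWR/J arrays did not overlap the other 27 in 59 members, 11 higher and 48 lower. Over all 27212 detected probe sets, 0.11% lay wholly above the other arrays in SWR/J and 0.367% wholly below. The rule used the same contrast, so nothing is read from this count. The gap exceeded 1 in 58 members on saline arrays alone, in 57 on acute arrays alone and in 62 on chronic arrays alone. In 50 members it did so in all 3. The rule used these same arrays, so these counts are not an independent repeat. Of the 66, 62 passed the detection filter (log2 intensity over 6.64 on at least 9 of 36 arrays) and entered the morphine tests; the 4 that did not were Ccdc14, Itch, 1457141_at and 1457183_at. There were 44 members with 1 gene symbol, from 40 genes, 1 with several symbols and 21 with none in the annotation used here.

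Cd59a was higher in SWR/J on both of its probe sets. It encodes a membrane-anchored inhibitor of the complement membrane attack complex. Its probe set 1418710_at gave log2 intensities from 9.46 to 9.87 over the 9 SWR/J arrays, with a median of 9.69, and from 6.86 to 8.45 over the other 27. Every SWR/J array was above every other array, and the SWR/J mean was 3.74-fold the mean of the other strains. The strains also differed among themselves, DBA/2J having the next highest mean (8.30), then C57BL/6J (7.96) and 129P3/J (7.13). Probe set 1429830_a_at gave the same order: SWR/J lay between 8.35 and 8.68 (median 8.51), the other arrays between 6.19 and 7.37, and the strain means descended from 8.51 in SWR/J to 7.10 in DBA/2J, 6.90 in C57BL/6J and 6.55 in 129P3/J. In pooled tissue RNA, more cells of a type and more RNA per cell cannot be told apart. Cd59a was the 1 member gene among the 10 detected genes of a complement list, whose median difference in SWR/J was -0.05 on the log2 scale.

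The region around the Cd59a start site, from 250 bases before it to 50 after, is shown because this is a gene whose detected probe sets all moved the same way by 0.5 or more. The sequence is RefSeq's, on the plus strand of GRCm38.p6 at chr2:104095551-104095850, and SWR/J sequence may differ from it.
Cd59a: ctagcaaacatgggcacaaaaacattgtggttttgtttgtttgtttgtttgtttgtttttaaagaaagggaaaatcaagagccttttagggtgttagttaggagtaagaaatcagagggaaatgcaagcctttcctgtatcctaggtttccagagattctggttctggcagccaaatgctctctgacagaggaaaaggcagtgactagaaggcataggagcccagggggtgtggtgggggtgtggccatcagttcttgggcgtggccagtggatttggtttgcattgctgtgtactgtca
Searched on both strands, this window held none of 4 short motifs: the TATA motif TATAAA (in 13.6% of 32851 RefSeq windows of this kind), the CCAAT motif (37.4%), the GC motif GGGCGG (35.7%) and the E-box CACGTG (7.15%). The motifs do not overlap one another in the windows shown.

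The other higher members with a name were Gnb1, Ccdc14, Rnf130, Zfp605, Rictor, Mapk14, Wdr70, Eif2ak2 and Slc5a3. Gnb1 encodes a beta subunit of heterotrimeric G proteins, which carry the signal of opioid receptors. Its probe set 1425908_at lay between 7.05 and 8.00 on the SWR/J arrays (median 7.51) and between 4.96 and 6.19 on the others, none of which passed the detection level, so SWR/J was at least 1.84-fold higher. Zfp605, a zinc finger protein gene, lay between 7.41 and 7.86 in SWR/J and between 5.95 and 6.47 elsewhere, at least 2.01-fold higher. Rictor encodes a defining subunit of mTOR complex 2; its probe set lay between 7.12 and 7.62 in SWR/J and between 5.45 and 6.56 elsewhere, at least 1.61-fold higher. On these 3 probe sets the SWR/J arrays stood clear of all others. Rictor's other detected probe set, 1435698_at, differed by -0.05, with 8.58 to 9.20 in SWR/J and the same range on the other arrays.

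Higher members were also found where the other strains were near or above the detection level. Mapk14, which encodes the stress kinase p38 alpha, had an SWR/J mean of 8.40 against 6.99 to 7.12 in the other strains. Wdr70, a WD repeat protein gene, had 7.77 against 6.43 to 6.62. Eif2ak2 encodes the kinase that double-stranded RNA activates; its mean was 8.86 in SWR/J and 7.01 to 7.74 in the others. None of these 3 overlapped. Slc5a3, a sodium-coupled myo-inositol transporter, and Rnf130, a RING-type ubiquitin ligase, did. SWR/J arrays spanned 7.91 to 9.45 and the others 7.05 to 8.59 for Slc5a3, and 6.46 to 9.03 against 5.46 to 7.70 for Rnf130. The other detected probe set of Slc5a3 differed by -0.05, and those of Rnf130 by between -0.15 and 0.04.

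Ccdc14, a gene for a centriolar satellite protein, met the rule through few arrays. Of its 9 SWR/J values, 3 lay between 13.06 and 14.23 (2 acute arrays and 1 chronic array) and 6 between 5.57 and 6.45. Single arrays of the other strains were as bright, at 14.38 in DBA/2J, 14.06 in C57BL/6J and 12.65 in 129P3/J. On saline arrays alone the gap was -2.66, so the direction of this member did not hold there.

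**Figure D2:**
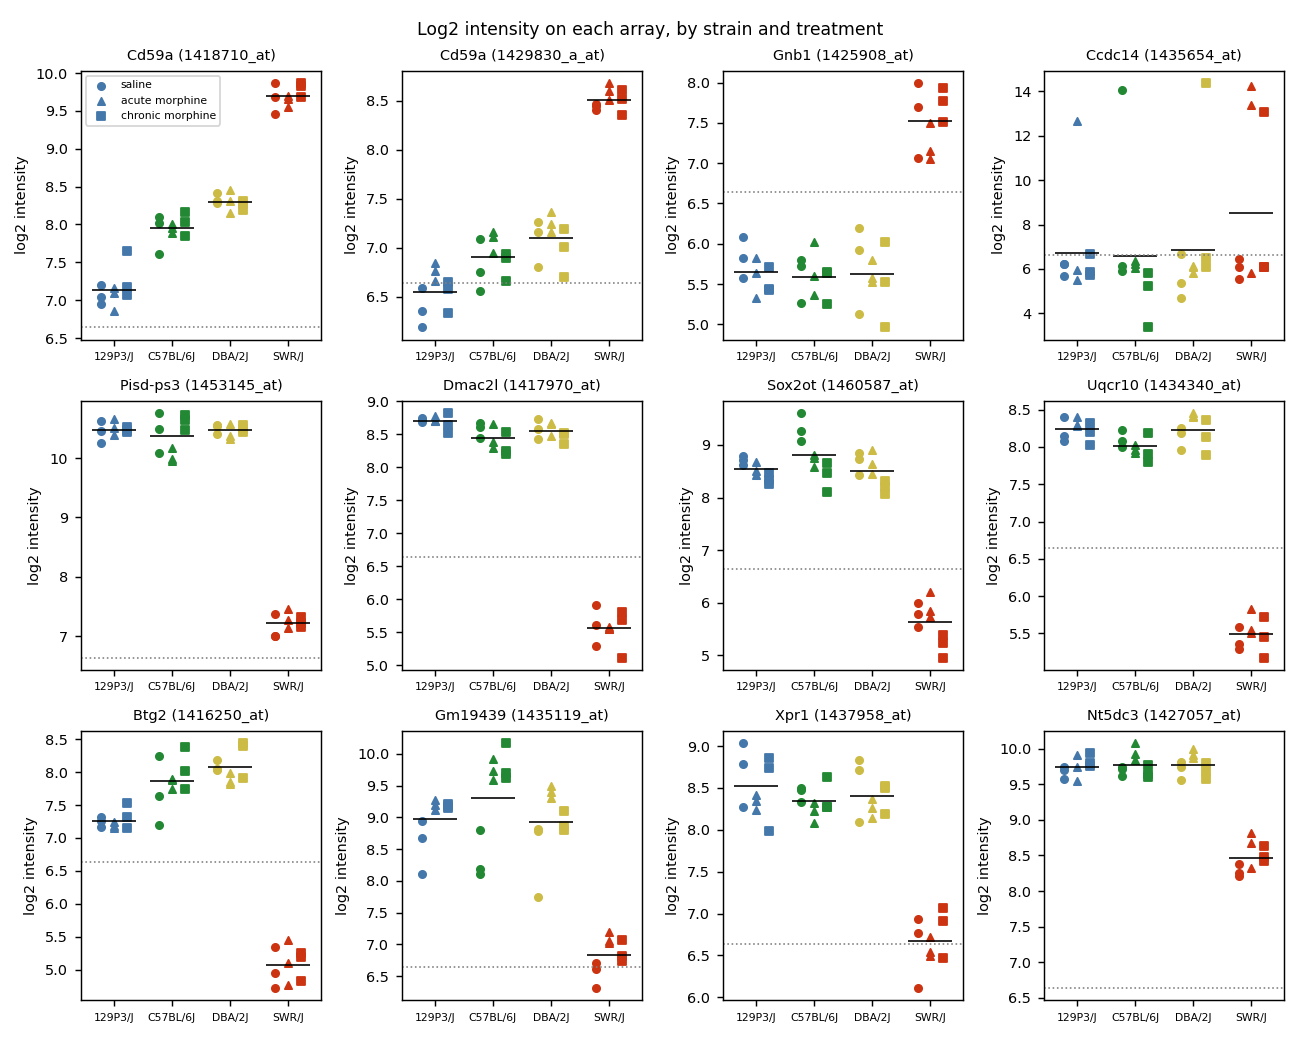
Log2 intensity of 12 members on each array by strain, with circles for saline, triangles for acute and squares for chronic morphine; the black bar is the mean of 9 arrays and the dotted line the detection level of 6.64. The 9 SWR/J arrays lie apart from the other 27 in every panel but that of Ccdc14, where 3 SWR/J arrays and 1 array of each other strain are high.

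Among the lower members, those with the largest gaps had no gene symbol. Probe set 1441388_at lay between 2.74, the floor of the deposited values, and 4.86 in SWR/J and between 7.99 and 8.54 elsewhere, so SWR/J was at least 3.06-fold lower. Probe set 1458038_at lay between 2.87 and 4.41 against 7.31 to 7.99, at least 2.08-fold lower. The groups did not overlap in either.

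Pisd-ps3 had 3 member probe sets, more than any other gene. It is a transcribed pseudogene related to Pisd, whose product makes phosphatidylethanolamine in mitochondria. Probe set 1453145_at lay between 7.01 and 7.45 in SWR/J (median 7.22) and between 9.95 and 10.76 on the other arrays, and the SWR/J mean was 9.32-fold lower. Probe set 1429452_x_at had an SWR/J mean of 6.90 against 8.48 to 8.73. Probe set 1453144_at lay between 2.91 and 4.07 in SWR/J and passed the detection level on only 9 of the other arrays, so no fold is given. The 2 remaining probe sets annotated to Pisd-ps3 alone were also lower, by 0.81 and 0.68 on the log2 scale. Those shared with Pisd or Pisd-ps1 differed by between -1.26 and -0.18, and the probe set annotated to Pisd alone by 0.07. Near-identical copies share probes, so which copy these values come from is uncertain.

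A list of mitochondrial respiratory chain and ATP synthase genes, 104 of them detected, held 2 member genes, both lower in SWR/J. Dmac2l encodes a small protein associated with the ATP synthase; its probe set 1417970_at lay between 5.11 and 5.91 in SWR/J and between 8.21 and 8.82 elsewhere, at least 3.79-fold lower. Uqcr10 encodes a small subunit of complex III. Its member probe set 1434340_at lay between 5.17 and 5.82 against 7.80 to 8.45, at least 2.87-fold lower, while its other detected probe sets, 1434341_x_at and 1424364_a_at, each differed by -0.06. The median difference over the genes of the list was -0.05.

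Sox2ot and Ttc14 were the only 2 member genes, of 38 with a known position, whose starts lay within 1 Mb of each other, on chromosome 3. Sox2ot is a long noncoding RNA that overlaps Sox2, a transcription factor gene of neural progenitors. Its probe set lay between 4.95 and 6.20 in SWR/J and between 8.07 and 9.61 on the others, at least 3.94-fold lower. Ttc14, a tetratricopeptide repeat protein gene, lay between 5.54 and 6.04 against 7.39 to 8.18 on probe set 1456430_at, at least 2.11-fold lower. Its 7 other detected probe sets differed by between -0.23 and 0.53. The other strains' private genes formed 9 such pairs in DBA/2J, 7 in C57BL/6J and 3 in 129P3/J.

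The next lower members are listed with what their products do; no list or test groups them. Kcnh1, a voltage-gated potassium channel gene, lay between 5.57 and 6.39 in SWR/J and between 7.22 and 9.33 elsewhere, at least 2.92-fold lower. Nsg2, which encodes a vesicle protein of neurons, had an SWR/J mean of 6.80 against 8.87 to 8.98. Fgf14, whose product binds voltage-gated sodium channels, had 8.73 against 9.97 to 10.15, and Nrxn3, a presynaptic adhesion molecule gene, 10.00 against 11.05 to 11.19. Prkce, which encodes the epsilon isoform of protein kinase C, had 9.74 against 10.98 to 11.07 on probe set 1437861_s_at. Stx3, a membrane fusion gene, had 6.88 against 8.50 to 8.63. The SWR/J arrays did not overlap the others on any of these 6 probe sets. Other probe sets of the same genes differed less: Nsg2 1416107_at by -0.16 and Kcnh1 1435994_at by -0.26. Of the other detected Prkce probe sets, 1452878_at differed by -0.04 and 1449956_at by -0.98.

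Abce1 encodes an ATPase that recycles ribosomes, and its member probe set lay between 4.45 and 5.35 against 7.16 to 8.10, at least 1.84-fold lower. Its other detected probe sets, 1416015_s_at and 1416014_at, differed by -0.10 and -0.05. Btg2, an antiproliferative immediate early gene, lay between 4.72 and 5.45 against 7.15 to 8.44, at least 2.13-fold lower. B4galt7, which adds a linker galactose to proteoglycans and was the 1 member in a glycosyltransferase list of 61 detected genes, lay between 5.68 and 6.56 against 7.61 to 8.18, at least 2.56-fold lower. Zfp267, a zinc finger protein gene, had a mean of 7.15 against 9.08 to 9.40, and Smim10l1, a small membrane protein gene, 6.55 against 8.92 to 9.04. The other detected probe set of Zfp267 differed by 0.16, and those of Smim10l1 by -0.51 and 0.00. Fgf1, a fibroblast growth factor gene, had 8.28 against 9.53 to 9.56, and its other detected probe set differed by -0.85. Aldh1a1, which makes retinoic acid, had 7.17 against 8.61 to 8.76. No member belonged to the cell type, opioid, GABA and glutamate receptor, glucocorticoid-responsive, ribosomal or MHC lists, or to a list of ubiquitin genes restricted to the Usp, Ube, Trim and Fbx families, which does not cover the ubiquitin ligase genes Rnf130 and Itch.

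Xpr1, which encodes a phosphate exporter, was lower in SWR/J on all 7 of its detected probe sets. Its members 1437958_at and 1450130_at had SWR/J means of 6.67 and 6.86 against 8.34 to 8.52 and 8.36 to 8.43. Its 5 other detected probe sets were also lower in SWR/J, by 0.71, 0.49, 0.25, 0.20 and 0.20 on the log2 scale.

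Nt5dc3, a gene of the 5'-nucleotidase domain family, had a member, 1427057_at, at 8.20 to 8.81 in SWR/J (median 8.42) and 9.54 to 10.07 elsewhere, 2.46-fold lower by the means. Its other detected probe set, 1443558_s_at, differed by -0.88. The RefSeq sequence at its start site, on the plus strand of GRCm38.p6 at chr10:86778755-86779054, is given for the same reason as that of Cd59a, and capitals mark GGGCGG on the opposite strand.
Nt5dc3: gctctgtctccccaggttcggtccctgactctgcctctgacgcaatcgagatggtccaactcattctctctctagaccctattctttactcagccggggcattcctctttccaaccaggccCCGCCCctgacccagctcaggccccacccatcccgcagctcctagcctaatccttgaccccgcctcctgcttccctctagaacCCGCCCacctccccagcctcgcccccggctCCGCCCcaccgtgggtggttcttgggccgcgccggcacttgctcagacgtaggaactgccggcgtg
The window holds 3 matches to GGGCGG and none to the other 3 motifs. Its G and C content was 64.7%, and that of the Cd59a window 45.7%. A match is a description of the letters only.

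Of the 40 member genes, 29 had another detected probe set, 59 in all, and in 18 of these 29 every other detected probe set lay within 0.5 on the log2 scale. Of these 59, 47 (79.7%) differed by less than 0.5 on the log2 scale between SWR/J and the mean of the other strains, against 97.6% of all detected probe sets. Another 8 differed by more than 0.5 in the member's direction and 4 in the opposite one. Such a difference from the mean of the other strains need not set SWR/J apart from each of them. In Smim10l1 1453208_at (-0.51), SWR/J (9.59) lay beside DBA/2J (9.69) and C57BL/6J (9.89), with 129P3/J highest (10.70). Btg2 is one of the 18: its member differed by -2.67 and its other probe set by 0.05. In Mapk14 the member differed by 1.32 and 4 others by between -0.30 and -0.06. Opposite differences were found in Cfl2 (0.56), Stx3 (0.50), Ttc14 (0.53) and Pnma2. The Pnma2 probe set 1437018_at was high in SWR/J (mean 8.65) and C57BL/6J (8.36) and low in DBA/2J (4.80) and 129P3/J (4.55). The 2 other Gnb1 probe sets differed by 0.59 and 0.32, and both were lowest in C57BL/6J.

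**Figure D3:**
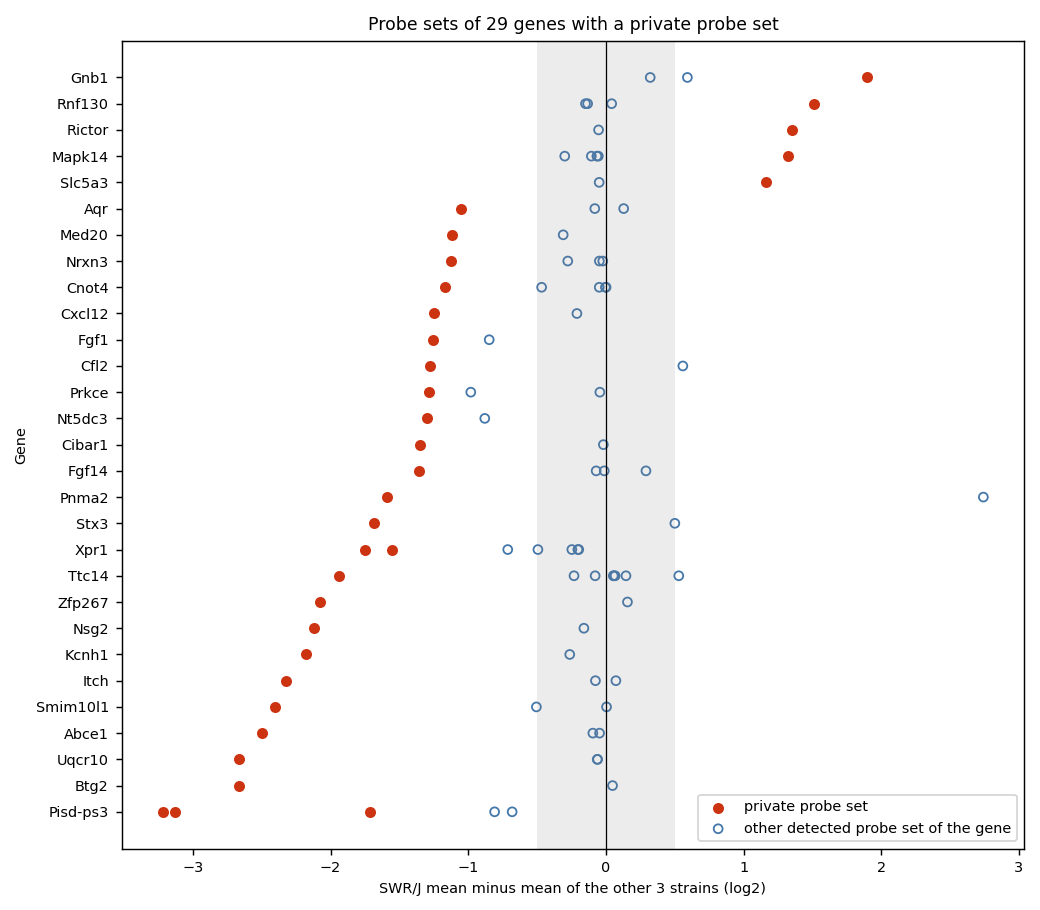
Difference between the SWR/J mean and the mean of the other 3 strains (log2) for every detected probe set of 29 genes, with filled red circles for members and open blue circles for the others; the grey band spans -0.5 to 0.5. In 18 genes all open circles lie within the band, while those of Fgf1, Nt5dc3 and Pisd-ps3 lie left of it, on the side of the member.

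The limits of the rule cut through a continuous range. Just inside the gap limit were Med20 (gap 1.01), 1447342_at (1.01) and Rrp8 (1.04), all lower in SWR/J. Just outside were 1429712_at (1.00, lower), Hmbox1 (0.99, higher) and Syndig1l (0.98, higher). Just inside the detection level, the highest strain means were 6.64 (1457141_at), 6.69 (Itch) and 6.71 (1457183_at). Just outside it they were 6.58 (Tmem167), 6.51 (1434430_s_at) and 6.46 (1434431_x_at).

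The treatment contrasts are independent of the strain means and were tested with limma over the 27212 detected probe sets, at a Benjamini-Hochberg adjusted p under 0.05 for contrasts and 0.01 for F-tests. Over the 4 strains, 7 of the 62 members tested changed with acute morphine, 4 of them upward (4.69% of all detected probe sets were called). With chronic morphine 5 changed, 2 upward, where 4.73% of all were called. The median change of the 62 members was -0.06 after acute and 0.02 after chronic morphine, against 0.01 and 0.00 over all detected probe sets. The main effect of morphine was called in 11 members, with 8.71% of all called. The counts moved with the fit, for the members and for all probe sets. With treatment and replicate number as a random block, 3 members were called after acute morphine, 2 after chronic morphine and 2 for the main effect (0.676%, 0.331% and 0.478% of all). With array weights the acute count was 21 and the main effect count 25 (16.4% and 23.8% of all). Both contrasts used the same saline arrays.

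Gm19439, a predicted gene, gave the largest change among the called members. Its log2 intensities in SWR/J were 6.32, 6.61 and 6.70 with saline, 7.05, 7.03 and 7.20 with acute and 6.81, 6.74 and 7.07 with chronic morphine; both morphine sets lay above the saline set. In C57BL/6J they were 8.10, 8.18 and 8.80, then 9.92, 9.72 and 9.59, then 9.62, 9.70 and 10.17. Over the 4 strains it rose by 0.87 ± 0.11 (SE, adjusted p = 1.01e-05) after acute and by 0.72 ± 0.11 (adjusted p = 3.38e-04) after chronic morphine, upward in all 4 strains each time.

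Rrp8, which encodes a nucleolar methyltransferase, rose by 0.44 ± 0.06 (adjusted p = 1.12e-04) after acute and by 0.30 ± 0.06 (adjusted p = 0.00673) after chronic morphine. Its SWR/J values were 5.62, 5.51 and 5.79 with saline, 5.93, 6.07 and 5.71 with acute and 5.64, 5.75 and 5.71 with chronic morphine, all under the detection level and overlapping. With treatment and replicate number as a random block, the acute call held (adjusted p = 0.0107) and the chronic one did not (adjusted p = 0.140).

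Cxcl12, a chemokine gene expressed by vessel and stromal cells, fell by 0.49 ± 0.09 (adjusted p = 0.00191) after acute and by 0.43 ± 0.09 (adjusted p = 0.00771) after chronic morphine. Its SWR/J values were 7.98, 7.36 and 7.62 with saline, 7.10, 7.12 and 6.87 with acute and 6.78, 7.26 and 7.25 with chronic morphine, so saline was highest without overlap. The change was negative in all 4 strains, from -0.16 in 129P3/J to -0.95 in C57BL/6J after acute morphine. Its other detected probe set, 1448823_at, gave -0.04 ± 0.07 (adjusted p = 0.811) and -0.01 ± 0.07 (adjusted p = 0.943). Under the random block the acute adjusted p was 0.0475 and the chronic one 0.132. The summed intensity of 10 detected endothelial genes was 3593 to 4505 on the SWR/J arrays and 3508 to 5096 on the others; their part in the result was not tested.

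Sox2ot fell by 0.58 ± 0.08 (adjusted p = 1.04e-04) after chronic morphine, in all 4 strains. Its SWR/J values were 5.79, 5.99 and 5.54 with saline, 6.20, 5.85 and 5.73 with acute and 4.95, 5.39 and 5.24 with chronic morphine. The chronic set was lowest without overlap, although under the detection level as all SWR/J values of this probe set were. Under the random block the adjusted p was 0.00408.

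Pnma2, a neuronal antigen gene, fell by 0.35 ± 0.06 (adjusted p = 0.00242) after chronic morphine, with SWR/J values of 8.21, 7.93 and 7.87 under saline and 7.67, 7.78 and 7.61 under chronic morphine. All 4 strains fell, by between 0.31 and 0.43. Its other probe set gave 0.12 ± 0.14 (adjusted p = 0.630). The random block ended this call (adjusted p = 0.0603).

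The remaining 4 acute calls had adjusted p between 0.0126 and 0.0346. Nt5dc3 rose by 0.22 ± 0.05 (adjusted p = 0.0199) and Cd59a, on 1429830_a_at, by 0.25 ± 0.07 (adjusted p = 0.0346) after acute morphine, while Cd59a probe set 1418710_at gave -0.01 ± 0.07 (adjusted p = 0.946). Probe sets 1459464_at and 1454566_at fell by 0.54 ± 0.15 (adjusted p = 0.0294) and 0.44 ± 0.10 (adjusted p = 0.0126). The random block ended all 4 calls, with adjusted p of 0.175, 0.278, 0.193 and 0.147. Leaving out single arrays ended the call of Cd59a in 14 of 36 cases and that of 1459464_at in 12 of 36. The number of acute calls was 11 without DBA/2J SAL replicate 2, and that of chronic calls 9 without C57BL/6J CHR replicate 2.

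By the F-test alone, 4 further members were called. These were Kcnh1 (adjusted p = 0.00344), with changes of -0.31 after acute and 0.26 after chronic morphine; Aqr, a splicing helicase gene (adjusted p = 0.00647), with 0.09 and -0.12; Med20, a Mediator subunit gene (adjusted p = 0.00751), with 0.18 and -0.12; and 1442276_at (adjusted p = 0.00888), with -0.16 and 0.36. None of these 8 changes was called as a single contrast. In each of the 4 the signs differed between acute and chronic morphine. The random block ended all 4 F-test calls, with adjusted p of 0.0460, 0.0993, 0.0674 and 0.115 in the order given, and left those of Gm19439 (adjusted p = 5.28e-04) and Sox2ot (adjusted p = 0.00320).

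**Figure D4:**
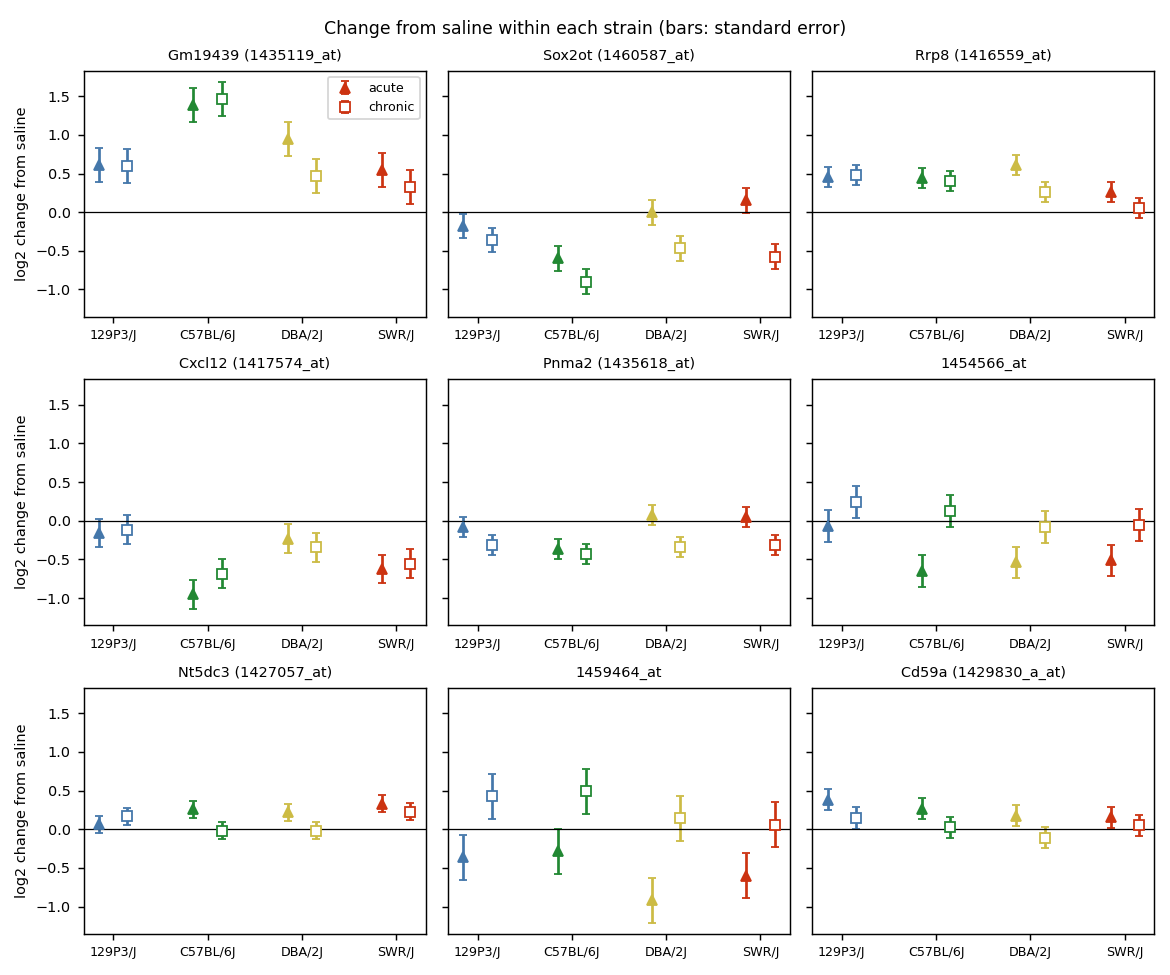
Change from saline (log2) within each strain for the 9 members called in a contrast over the 4 strains, with filled triangles for acute and open squares for chronic morphine; bars are standard errors of the fit, 3 arrays against 3. All 8 Gm19439 changes lie above 0 and all 8 Cxcl12 changes below it, and the 4 chronic changes of Sox2ot and of Pnma2 lie below 0.

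Within SWR/J alone, where 3 arrays are compared with 3, no member was called after acute morphine (0.0478% of all called), after chronic morphine (0.0294%) or between both treatments (0%). At an unadjusted p under 0.05 there were 13, 7 and 16 members of 62 (21.0%, 11.3% and 25.8%). Over all detected probe sets the shares were 8.15%, 5.96% and 14.8%. The fit used 1 spread per probe set over all strains. Probe set 1441388_at had a standard deviation of 0.60 over the SWR/J arrays and 0.13 to 0.18 in the other strains. For Gm19439 it was 0.28 against 0.37 to 0.76. Where SWR/J arrays spread more, p-values within SWR/J can be too small, so nothing is read from the higher shares. With the replicate number as a fixed block, 1 member was called after acute morphine and 4 between the treatments (0.143% and 0.717% of all), and with array weights 2 and 7 (0.503% and 6.96% of all). The member nearest to a call was Cibar1, a gene of ciliogenesis, which differed by -0.62 ± 0.12 after acute morphine (adjusted p = 0.0549). Its SWR/J values were 6.47, 6.84 and 6.67 with saline and 6.31, 5.93 and 5.87 with acute morphine. The acute values and the lowest saline value lay under the detection level. Without SWR/J SAL replicate 1 the acute count was 2.

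No response was called as different in SWR/J. The response in SWR/J minus the mean response in the other strains was called in 0 members after acute and 0 after chronic morphine, with 0% of all probe sets called, and 5 members (8.06%) had an unadjusted p under 0.05 in each case, against 0.970% of all detected probe sets for acute and 2.33% for chronic morphine. The F-test of strain by morphine interaction called 0 members and 0% of all, with 7 members (11.3%) and 5.14% of all at an unadjusted p under 0.05. A p that misses the threshold does not show that the responses were alike. These tests also used 1 spread per probe set over all strains. For members with a wider spread in SWR/J the p-values can be too small. Nothing is read from the higher shares among members.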

How the data were processed

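Per the labels and the study's methods, the authors hybridized striatal RNA to Affymetrix arrays and deposited a linear signal intensity for each probe set, a model-based expression index from perfect match and mismatch probes after quantile normalization. Values have a floor of 6.69. Log2 of the intensity was taken; 64 control probe sets and 1 with 2 blank cells were left out. Gene symbols came from the platform annotation and positions from RefSeq (GRCm38.p6); the build behind the array design is not given in the sources used here. Present calls, part of the study's filter, were not used here. Limma 3.58.1 (R 4.3.3, statmod 1.5.0) fitted 12 group means with 24 residual degrees of freedom; the study's factorial test at an FDR of 1% guided the design. The fit was tested on simulated data. Tables and figures used Python 3.11.15, pandas 2.3.3, numpy 2.4.6 and matplotlib 3.10.9. The number of arrays limits the precision.

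The members and gene lists were chosen with earlier results of these data known. Named were, among members with 1 symbol, up to 15 higher (there were 11) and 15 lower ones of largest gap, those called for morphine, in a gene list, with several member probe sets, near another member gene or next to a limit of the rule. Other named members were chosen after their values were seen. Alternatives covered the strain summary, normalization, pseudocount, limits, filter, blocks, moderation, array weights and the omission of each array.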

Additional observations from a re-analysis of the deposited data

Results flagged for a closer look

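An SWR/J array lay far from the other 8 in 2 members, by Dixon's ratio of the gap to the range. The unnamed 1428909_at was 7.98 on SWR/J ACU 2, with the next array at 7.64. Cfl2, which encodes a cofilin that severs actin filaments, was 6.56 on SWR/J SAL 3, with the next at 6.90. Chance flags about 1 in 20 groups, and 2 of 66 members were flagged here; over the same members it was 13 in 129P3/J, 9 in C57BL/6J and 5 in DBA/2J.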

How the results depend on the processing

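The number of members was 62 to 72 with linear-scale means, saline arrays alone, quantile normalization, centring, a pseudocount of 16 or strain medians (the last chosen after seeing the data), which kept 58 to 65 of the 66. Without the level limit there were 97 members, 24 of them higher. With a gap of 1.5 there were 33, with 5 higher and 28 lower. Leaving out single arrays gave 62 to 69 members, 13 to 18 higher and 48 to 53 lower. Ccdc14 reversed on saline arrays alone (gap -2.66). For morphine, a threshold of 0.01 for contrasts gave 3 acute calls over the 4 strains (1.35% of all), and 0.05 for the main effect gave 24 (21.6% of all). A filter on mean signal gave 1 acute call in SWR/J. Arrays of the same treatment and number in different strains deviated together (mean correlation 0.264 over 54 pairs, 79.6% of them over 0.1). For the same treatment and another number the mean was -0.133 over 108 pairs (20.4% over 0.1). Deviations were taken from the mean of each group's 3 arrays. The negative value therefore follows largely from the positive one and adds no support to it. Not every pair of the same number was over 0.1, though 90.7% of the 54 were over 0. The labels give the numbers no meaning, and the block was kept as an alternative. The main fit treats arrays of the same treatment and number as independent. Its adjusted p for contrasts over the 4 strains can therefore be too small. The replicate block as a fixed term gave 12 acute calls over the 4 strains (8.51% of all), 1 acute call in SWR/J and 4 calls of chronic versus acute morphine in SWR/J. The replicate block with treatment as a random term (consensus correlation 0.241) gave 3 acute, 2 chronic and 2 main effect calls. Array weights gave 21 acute, 25 main effect, 2 acute SWR/J and 7 chronic versus acute SWR/J calls, with 16.4%, 23.8%, 0.503% and 6.96% of all probe sets called. Leaving out single arrays gave 5 to 11 acute, 5 to 9 chronic, 8 to 15 main effect and 0 to 2 acute SWR/J calls. The cause was not tested. None of these alternatives called a member for interaction, and leaving out the 7 members whose arrays overlap, chosen after seeing the data, left 7 acute and 5 chronic calls. Signal near the detection level limits the values of the 20 members that no SWR/J array passed.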
